A study of Mus musculus with 3 samples.

Results

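Macrophages and other leukocytes live in the heart beside the endothelium, and 36 genes that mark them were followed in RNA pulled down with tagged endothelial ribosomes. The genes were picked by symbol, as markers of resident and recruited macrophages, neutrophils and lymphocytes, and 34 of the 36 (94.4%) were among the 17583 genes of the deposited table. The neutrophil gene S100a8 and the T cell gene Cd3e were not listed, and the lowest maximum of any listed gene was 4. A missing gene is therefore only known to lie below the floor of the table.

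The RNA came from the hearts of 3 EC-RiboTag mice, genotype Cdh5-CreERT2;Rpl22tm1.1Psam, all of the same condition. In these mice an inducible Cre recombinase driven by Cdh5, the VE-cadherin gene of endothelial cells, switches on an HA tag on the ribosomal protein Rpl22, so the tag should be confined to cells in which that promoter was active at induction and to their descendants. Hearts were homogenized, tagged ribosomes were precipitated with an antibody to the tag, and the bound RNA was sequenced. By the labels the hearts were taken 7 days after the coronary artery was tied, whereas the RiboTag methods of the study name no infarction. In its supplement the study also took ribosome-bound RNA at that time from a remote zone of the heart, shortened to RZ, and from border and infarct zones, and the titles carry the letters Rz. The labels themselves name only the heart as the tissue. No age or sex was given for single mice. Input RNA, uninfarcted hearts and hearts without the tag were not analysed here, so enrichment over whole heart RNA could not be measured, and fewer cells of a type cannot be told apart from less RNA per cell. In its supplement the study compared precipitate with input by quantitative PCR for cell type markers, Ptprc among them. Those ratios were not used here.

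CD45, encoded by Ptprc, is carried by nearly all nucleated blood cells. Macrophages are set apart by the transcription factor PU.1 (Spi1), the growth factor receptor CSF1R, the lysosomal proteins CD68 and lysozyme, and by C1q, the recognition molecule of the classical complement pathway, which they make in place. Resident cardiac macrophages carry scavenger and endocytic receptors such as MRC1, CD163, FOLR2 and TIMD4 and renew themselves in the tissue, whereas CCR2 brings monocytes in from the blood after injury. PU.1 binds DNA at a purine-rich element called the PU box, of which GAGGAA is the core, and many myeloid promoters hold one near the start of transcription.

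Promoters of 300 bases, 270 upstream and 30 downstream of the start of the canonical transcript in GENCODE vM39 on GRCm39, were read for the 34 listed genes. The longer form of the element, GAGGAAGT on either strand, occurred in 4 of the 34 promoters (11.8%), compared with 384 of 14238 promoters of protein-coding genes (2.7%). The shorter form, GAGGAA on either strand, which the longer form contains, occurred in 16 of 34 (47.1%) and in 3922 of 14238 (27.5%). Of the promoters with the longer form, 3 are shown because they belong to the signalling chain of Fc receptors, to PU.1 itself and to a C1q chain, whose levels follow. Capitals mark GAGGAA or its reverse complement TTCCTC, and each sequence runs 5′ to 3′ on the strand of its gene. The matches are letters in these windows and say nothing of binding.
Fcer1g, chr1:171062190-171062489, minus strand: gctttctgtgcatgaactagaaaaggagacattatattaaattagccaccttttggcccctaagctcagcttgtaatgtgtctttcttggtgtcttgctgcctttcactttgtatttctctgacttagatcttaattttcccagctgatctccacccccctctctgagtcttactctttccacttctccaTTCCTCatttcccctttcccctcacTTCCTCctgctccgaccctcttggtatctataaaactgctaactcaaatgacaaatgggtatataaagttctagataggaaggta
Spi1, chr2:90926171-90926470, plus strand: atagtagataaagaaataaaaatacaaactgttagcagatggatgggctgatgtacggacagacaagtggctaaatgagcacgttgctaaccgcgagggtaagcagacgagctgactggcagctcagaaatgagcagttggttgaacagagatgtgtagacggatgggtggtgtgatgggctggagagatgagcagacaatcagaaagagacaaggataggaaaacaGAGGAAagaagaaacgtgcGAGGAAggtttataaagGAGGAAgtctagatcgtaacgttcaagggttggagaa
C1qc, chr4:136620347-136620646, minus strand: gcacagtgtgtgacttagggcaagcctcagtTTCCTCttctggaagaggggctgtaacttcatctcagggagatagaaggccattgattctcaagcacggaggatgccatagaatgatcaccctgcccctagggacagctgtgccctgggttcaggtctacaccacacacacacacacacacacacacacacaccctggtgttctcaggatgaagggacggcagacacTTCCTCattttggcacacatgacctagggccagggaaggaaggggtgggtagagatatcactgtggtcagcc
Fcer1g and C1qc held 2 matches each and Spi1 held 3. The Fcer1g window belongs to the start of the newer annotation, since the deposited table ends the gene at position 171061934 of chromosome 1. Spi1 was read at its canonical start, which lies inside the gene as the table gives it, from position 90912735 of chromosome 2. The C1qa promoter held no match.

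Endothelial and cardiomyocyte transcripts both stood high in the libraries. The deposited values are read counts divided by a size factor for each library and rounded to whole numbers, and are called normalized counts below. They summed to 7149102, 7158585 and 7268785 in mice 1, 2 and 3, which corresponds to about 7320000, 6755000 and 7566000 reads, a normalized count of 1 being worth close to 1 read. Divided by the length of the canonical transcript, the median of a list of 12 endothelial genes was 690 ± 13.4 per kb (SD, n = 3 mice), and Cdh5, the gene whose promoter drives the Cre, stood at 2866 ± 61.2 normalized counts, rank 46 of all genes. By normalized count, not divided by length, the cardiomyocyte gene Ttn, the titin gene, had rank 1 and the endothelial gene Flt1, a VEGF receptor gene, rank 3. The canonical transcript of Ttn has 107543 bases, and per kb Ttn stood at 78.5, rank 8478, and Flt1 at 713, rank 119. The median of the 36 macrophage and leukocyte genes, with the missing genes counted as 0, was 19.6 ± 4.58 per kb. That of all listed genes with a known length was 73.0 per kb. Genes below the floor are left out of the latter, so the 2 medians are not over like sets. Cardiomyocyte genes had a median of 565 ± 18.9 per kb, fibroblast genes 101 ± 20.8 and mural cell genes 38.5 ± 6.93, so transcripts of cells that should not carry the tag were read as well. The authors removed duplicate reads, which can hold down the highest levels per kb, so gaps between lists may be larger than shown. How far this went, and the part that each cell type had in these values, was not tested.

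**Figure D1:**
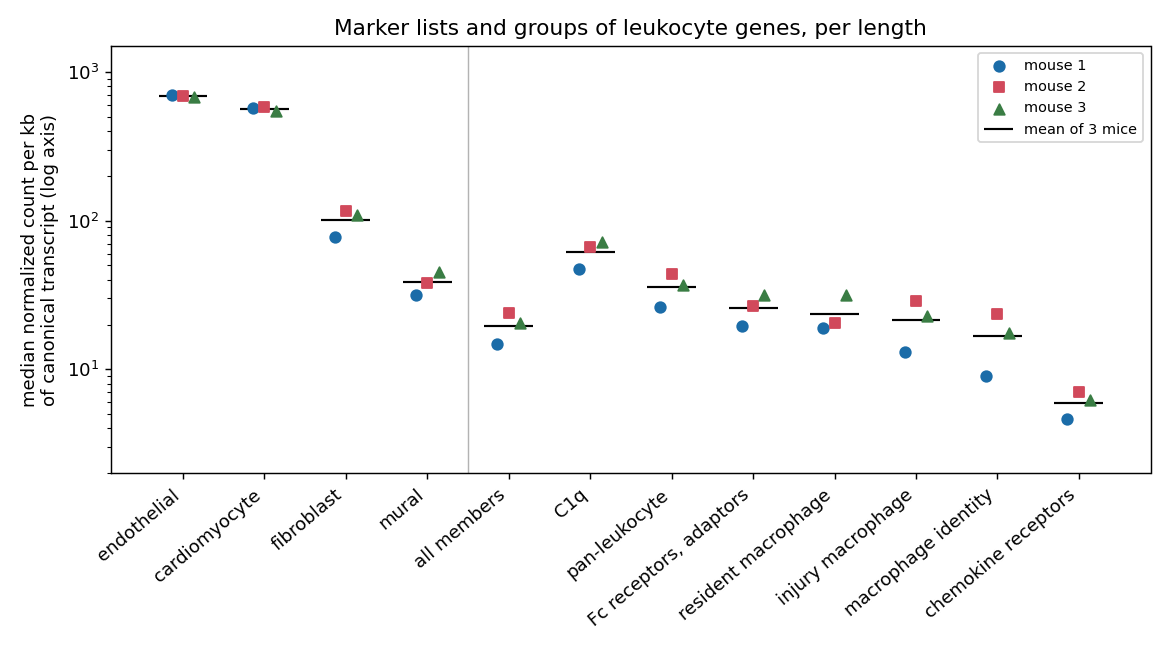
Normalized count per kb of canonical transcript, the median of each list, in each of the 3 mice (points) and on average (line), on a log axis. The 36 macrophage and leukocyte genes (all members), at 19.6 per kb on average, lie below the mural, fibroblast, cardiomyocyte and endothelial lists, and their groups by role stand to the right.

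Together the 34 genes summed to 1635, 2361 and 2207 normalized counts in mice 1, 2 and 3, or 0.0229%, 0.0330% and 0.0304% of the libraries. Mouse 1 was the lowest, and the mean of 2068 ± 383 had a coefficient of variation (CV, the SD over the mean) of 18.5%. In every mouse 33 of the 34 genes had a value of at least 1 (97.1%), compared with 97.2% of all genes, and the exception was Cd79a. A mean of at least 10 was reached by 31 of the 34 (91.2%), compared with 82.1% of all genes.

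**Figure D2:**
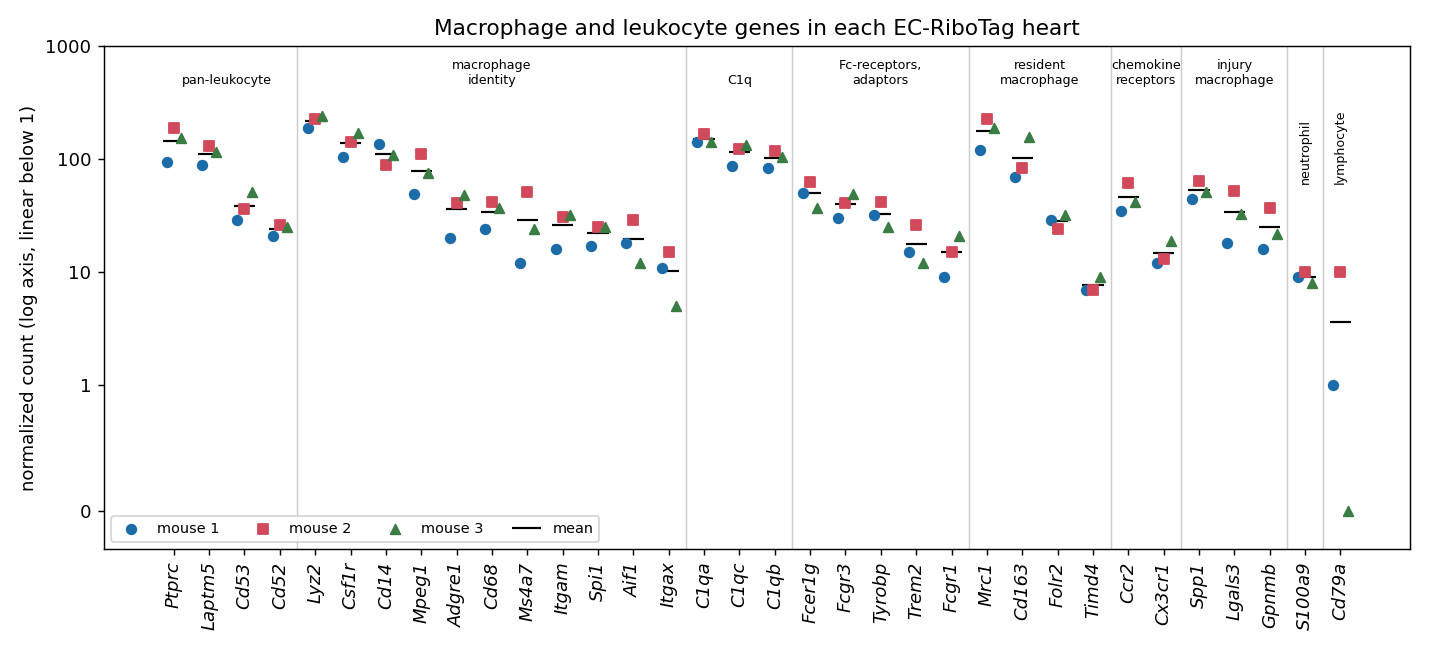
Normalized count of each of the 34 listed genes in mouse 1, 2 and 3 (points) with the mean (bar), grouped by role, on a log axis that is linear below 1. Lyz2 is the highest and Cd79a, at 0 in mouse 3, the lowest, and the points of mouse 1 lie mostly below those of mice 2 and 3.

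Among the pan-leukocyte genes, Ptprc had 94, 190 and 154 normalized counts in mice 1, 2 and 3, a mean of 146 ± 48.5. Mouse 2 stood highest, and all 3 mice were far below the endothelial level, since Cdh5 exceeded Ptprc per kb by 26.0-fold. Duplicate removal may have held down Cdh5 more than Ptprc, which was not tested. The log2 ratio of Ptprc to Cdh5 per kb was -5.24, -4.26 and -4.60, or -4.70 ± 0.50 on average, and -6.45 with the length of all exons in place of the canonical transcript. The smallest p that an exact two-sided sign-flip permutation test can reach with 3 mice is 0.25, and the test gave 0.25 here and for each of 7 pairs of genes compared, with 0.25 after Benjamini-Hochberg adjustment, so no pair could pass a threshold of 0.05. Laptm5, which encodes a lysosomal membrane protein of blood cells, had 88, 130 and 115 normalized counts. The tetraspanin gene Cd53 had 29, 36 and 51, and Cd52, which encodes a small glycosylphosphatidylinositol-anchored surface protein, 21, 26 and 25. Mouse 1 was the lowest of the 3 mice for each of these 4 genes.

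The general macrophage genes ranged from Lyz2, the lysozyme gene, to Itgax. Lyz2 had 188, 224 and 240 normalized counts, a mean of 217 ± 26.6 and the highest of the 34, which placed it at rank 9081 of the 17583 genes. Csf1r, the receptor that macrophages need to survive, had 104, 143 and 170, with the mice well apart and a CV of 23.9%. Cd14, the co-receptor for lipopolysaccharide, had 135, 88 and 108. It was the only gene of the 34 with its highest value in mouse 1. Mpeg1, which encodes the pore-forming protein perforin-2, had 49, 112 and 76 and Adgre1, the F4/80 antigen gene, 20, 41 and 48. In both genes the value of mouse 1 was well below those of mice 2 and 3, with a CV of 40.1% for Adgre1. Cd68, which encodes a lysosomal glycoprotein, had 24, 42 and 37.

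Ms4a7, which encodes a four-span membrane protein of macrophages, had 12, 51 and 24 normalized counts. Its highest value was 4.25 times its lowest, and its CV of 68.9% was the largest of the 31 members that averaged 10 or more. Spi1, which encodes PU.1, had 17, 25 and 25, with mice 2 and 3 equal. Aif1, the gene of the actin-bundling protein IBA1, had 18, 29 and 12, and the values of mice 2 and 3 were farther apart than either was from mouse 1. Itgam, the gene of the integrin chain CD11b, had 16, 31 and 32, and Itgax, the CD11c gene, 11, 15 and 5. Of the exonic bases of Itgam, 67.4% are shared on the same strand with the read-through gene Gm49368, and reads on several genes were left out by the authors, so the level of Itgam may be understated.

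The 3 chains of C1q, which lie next to each other on the minus strand of chromosome 4, were among the highest per kb. C1qa had 142, 165 and 142 normalized counts, and its 138 ± 12.2 per kb was the highest of the 34 genes and above the median of all genes. C1qc had 87, 123 and 134, and C1qb 83, 117 and 104. The mice were close for C1qa, with a CV of 8.87%, while C1qc had a CV of 21.4%. Although the chains enter the C1q molecule in equal numbers, their transcripts were not equal per kb. C1qa exceeded C1qb by a log2 ratio of 1.99, 1.71 and 1.67 in mice 1, 2 and 3, a mean of 1.79 ± 0.17 or 3.46-fold. It exceeded C1qc by 1.47, 1.19 and 0.85, a mean of 1.17 ± 0.31 or 2.25-fold. C1qb was below C1qc in each mouse, with a log2 ratio of -0.52, -0.52 and -0.82. All 3 mice gave the same order of the chains, and the order was the same with the length of all exons, by which C1qb lay lower, at a mean log2 ratio of -1.29 to C1qc against -0.62 with the canonical length.

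Among the Fc receptor genes and their partners, the adaptors stood highest per kb, Tyrobp at 54.4 and Fcer1g at 52.1. Fcgr3, the gene of the low-affinity receptor for immunoglobulin G, had 30, 41 and 49 normalized counts, and Fcgr1, the gene of the high-affinity receptor, 9, 15 and 21. In both genes the lowest mouse was mouse 1 and the highest was mouse 3. Fcer1g, which encodes the signalling chain that Fc receptors share, had 50, 63 and 37, Tyrobp, which encodes the related adaptor DAP12, 32, 42 and 25, and Trem2, a lipid-sensing receptor that signals through DAP12, 15, 26 and 12. These 3 genes had their lowest value in mouse 3, unlike Fcgr1 and Fcgr3. The adaptors were nearly equal per kb, with log2 ratios of Tyrobp to Fcer1g of 0.02, 0.08 and 0.10, a mean of 0.07 ± 0.04 or 1.05-fold.

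The resident macrophage genes were led by Mrc1, the mannose receptor gene, with 121, 225 and 188 normalized counts and a mean of 178 ± 52.7. Mouse 1 was again the lowest. Cd163, the gene of the haemoglobin scavenger receptor, had 69, 83 and 157, and was the gene in which mouse 3 stood farthest above both others, with a CV of 45.9%. Folr2, a folate receptor gene, had 29, 24 and 32, and Timd4, which encodes a receptor for phosphatidylserine on dying cells, 7, 7 and 9. The spread of Folr2 and Timd4 between mice, 14.3% and 15.1%, was small beside that of Cd163.

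Of the chemokine receptors, Ccr2 had 35, 61 and 42 normalized counts and Cx3cr1, the fractalkine receptor, 12, 13 and 19. Per kb they stood at 8.03 ± 2.35 and 3.90 ± 1.01. Mrc1 exceeded Ccr2 per kb in each mouse, with log2 ratios of 1.84, 1.94 and 2.21, a mean of 2.00 ± 0.19 or 3.99-fold. The 2 genes mark resident and recruited cells only as background, and no share of cells can be read from this ratio.

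Lgals3, Spp1 and Gpnmb encode galectin-3, osteopontin and a lysosomal glycoprotein, which macrophages make in injured tissue. Lgals3 had 18, 52 and 33 normalized counts, Gpnmb 16, 37 and 22 and Spp1 44, 64 and 51. In these 3 genes mouse 2 was the highest and mouse 1 the lowest, and they summed to 78, 153 and 106. S100a9, a calprotectin gene of neutrophils, had 9, 10 and 8. Cd79a, which encodes a chain of the B cell receptor complex, had 1, 10 and 0, and 21.3% of the 72-base stretches of its transcript occur again letter for letter at another place of the genome. These values of S100a9 and Cd79a rest on about 10 reads or fewer in each library.

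Per kb the 34 genes ran from 138 for C1qa, followed by Lyz2, Cd14, C1qc, Tyrobp, Fcer1g, Cd52, Laptm5, C1qb and Mrc1, down to Cx3cr1, Timd4, Itgax and Cd79a, the last at 2.41. Of the 33 neighbouring pairs in this order, 32 lay closer to each other than the larger of their SDs, so most neighbours did not differ beyond their spread. C1q had the highest group median, 61.9 ± 13.3 per kb, followed by the pan-leukocyte genes at 35.5 ± 8.79, the Fc receptors and adaptors at 25.9 ± 6.17, the resident macrophage genes at 23.6 ± 7.04, the injury genes at 21.6 ± 7.90, the general macrophage genes at 16.7 ± 7.36 and the chemokine receptors at 5.97 ± 1.22.

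The mice varied in a larger share of these genes than of all genes. A gene was counted as varied where its mean was at least 10, its CV was over 20% and its CV was at least 2 times the one that counting reads alone would give. Of the 31 genes with that mean, 11 varied (35.5%), compared with 15.5% of all 14441 genes tested. They were Ptprc, Csf1r, Adgre1, Cd14, Mpeg1, Ms4a7, C1qc, Mrc1, Cd163, Lgals3 and Gpnmb. The median CV of the genes was 27.1% and that of all genes 9.92%, but low values are spread more by counting, and without the condition on counting 24 of the 31 passed, against 24.2% of all genes. With a mean of at least 50, 7 of 13 varied, against 14.1% of all genes. With a CV over 30%, 7 of the 31 remained, against 9.35%. Without mouse 1, whose values were lowest, 9 of 31 varied, against 9.85%. These were largely other genes. Only Cd163, Lgals3, Mpeg1 and Ms4a7 of the 11 remained, and Aif1, Fcer1g, Itgax, Trem2 and Tyrobp came in.

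The genes mostly had their lowest value in the same mouse. Mouse 1 held the lowest value of 23 of the 34 genes (67.6%), compared with 33.1% of all genes. It held the highest value of 1 gene (2.94%), compared with 34.5%. Mouse 2 held the highest value of 20 genes (58.8%) and mouse 3 of 12 (35.3%), compared with 29.6% and 32.2%, and Spi1 was tied. Of the 31 members that averaged 10 or more, 27 (87.1%) were lower in mouse 1 than the mean of mice 2 and 3, compared with 49.3% of 14395 genes of known length. Of the 4 others, Cd14, Folr2 and Itgax were higher in mouse 1, and Fcer1g was equal. The median log2 ratio of mouse 1 to the mean of mice 2 and 3 was -0.55 for the genes and 0.00 for all genes. With the median of all genes of like transcript length taken off, 29 of the 31 were lower in mouse 1 and the median was -0.53. The 3 mice are replicates of the same condition, so this pattern is a description of these hearts with no test behind it.

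**Figure D3:**
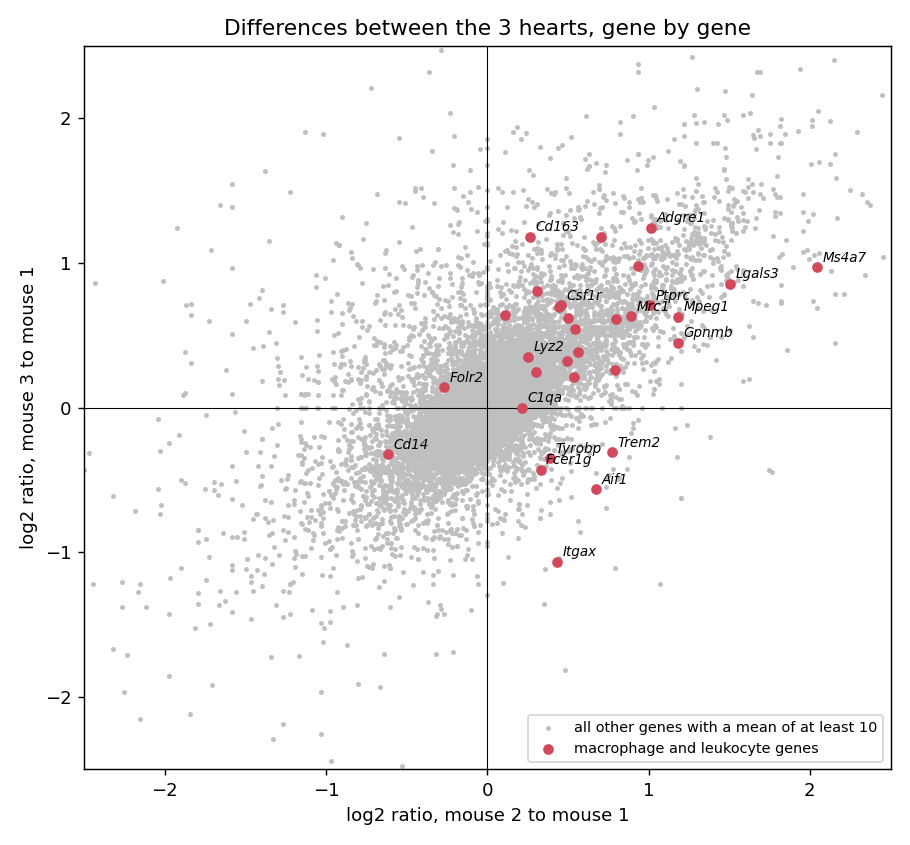
Log2 ratio of mouse 2 to mouse 1 (horizontal axis) and of mouse 3 to mouse 1 (vertical axis) for 14395 genes (grey) and for 31 macrophage and leukocyte genes (red, some named), with 56 genes outside the axis range of 2.5 either way. Both axes share mouse 1, and 23 of the 31 red points (74.2%) lie above 0 on both, as do 34% of all 14395 genes.

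Sums of fibroblast and mural genes were also lowest in mouse 1. The summed values of the leukocyte genes in mice 2 and 3 were 1.44 and 1.35 times that in mouse 1. The sum of 10 fibroblast genes was 3804, 4722 and 5385, or 1.24 and 1.42 times mouse 1, and that of 10 mural genes 1756, 2222 and 2512, or 1.27 and 1.43 times. The endothelial sum was 28993, 27946 and 29093, or 0.964 and 1.00 times, and the cardiomyocyte sum 20679, 21339 and 24237, or 1.03 and 1.17 times. Ttn and Ryr2 carried the cardiomyocyte sum, which without them was 10020, 9929 and 9561, and 6 of the 10 cardiomyocyte genes had their highest value in mouse 1. The sum of 5 listed red cell genes, 331, 334 and 369, differed less between mice. By the rule above, 7 of 10 fibroblast genes varied, as did 6 of the 9 mural genes that averaged 10 or more, and 1 of 12 endothelial genes, Vwf. Of all genes tested, 15.5% varied. Duplicate removal can even out high genes between mice, and its part in the small spread of the endothelial genes was not tested. Mouse 1 also stood apart in genes of the sex chromosomes, with 4, 618 and 869 normalized counts of Xist and 1080, 3 and 1 of Ddx3y in mice 1, 2 and 3, so a difference between sexes and a difference between these mice cannot be told apart. What part the fibroblast and mural content had in the leukocyte pattern was not tested.

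**Figure D4:**
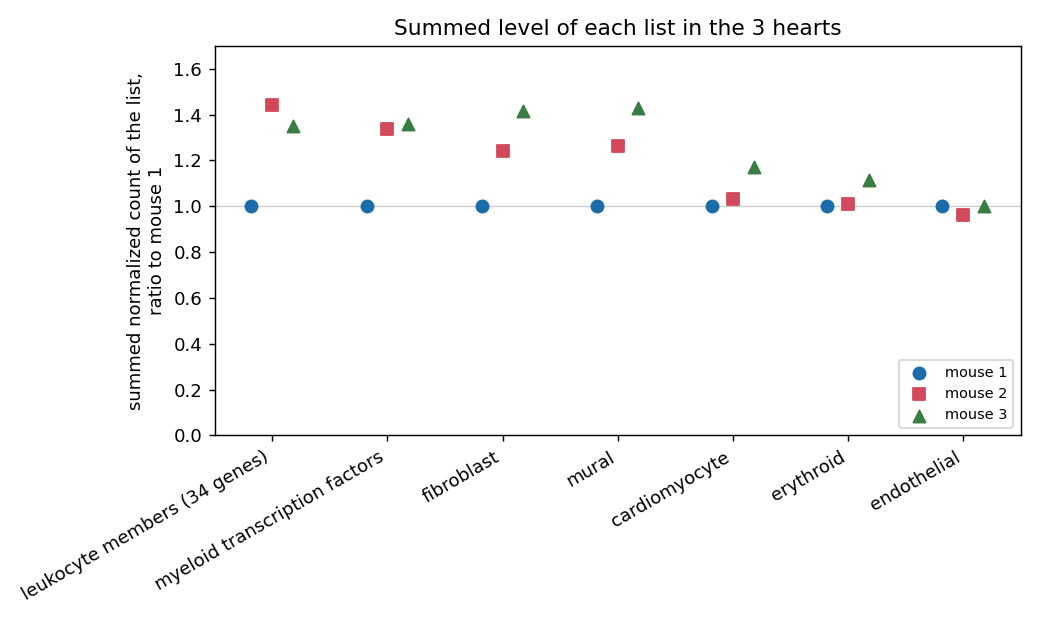
Summed normalized counts of each list in mouse 1, 2 and 3 as a ratio to mouse 1, from 0. The leukocyte genes, the myeloid transcription factors, and the fibroblast and mural genes stand above 1 in mice 2 and 3, and the endothelial genes stay near 1.

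Between mice 2 and 3, most groups summed higher in mouse 2. The sums in mouse 2 and mouse 3 were 1.65 and 1.49 times mouse 1 for the pan-leukocyte genes, 1.35 and 1.31 for the general macrophage genes, 1.30 and 1.22 for C1q, 1.38 and 1.059 for the Fc receptors and adaptors, 1.57 and 1.30 for the chemokine receptors and 1.96 and 1.359 for the injury genes. Members within a group were split, since Cd53 and Cx3cr1 were highest in mouse 3, and no difference between groups was tested. The resident macrophage genes summed to 226, 339 and 386 normalized counts in mice 1, 2 and 3, and the higher sum of mouse 3 rested on Cd163, since without it mouse 2 summed higher, with Mrc1 at 225 and 188 in mice 2 and 3. A set of 7 genes, Fcer1g, Tyrobp, Trem2, Itgax, Aif1, S100a9 and Cd79a, had their highest value in mouse 2 and their lowest in mouse 3. The 7 genes were grouped by this order itself, and the share of all genes with it was not counted. They are therefore only described, and no pattern is drawn from their number. Among them Itgax averaged 10.3, S100a9 9 and Cd79a 3.67 normalized counts. Several of the 7 transcripts are short, and short transcripts of all genes ran higher in mouse 2 than in mouse 3. The median log2 ratio was 0.11 for those of 79 to 1212 bases and -0.13 for those of 7036 to 123193 bases. With that shift taken off, the log2 ratio of mouse 2 to mouse 3 was 0.63 for Tyrobp, 0.65 for Fcer1g, 0.97 for Trem2, 1.52 for Itgax and 1.23 for Aif1, against 0.74, 0.76, 1.08, 1.49 and 1.24 before it. Cd163 had the opposite sign, at -0.89 after and -0.92 before. Among fibroblast genes the collagen genes Col1a1 (378, 642 and 401) and Col3a1 (388, 798 and 655) were likewise highest in mouse 2, whereas Dcn, the decorin gene, was lowest there (813, 579 and 1007).

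Endothelial cells are known to make ligands for several of these receptors, and most ligand transcripts exceeded those of the receptors. The pull-down should itself favour transcripts made by endothelial cells over those of macrophages. The ratios below therefore describe the precipitate and not the balance in the heart. Csf1, which encodes the growth factor that CSF1R binds, had 1139, 1183 and 1114 normalized counts, a mean of 1145 ± 34.9. Il34, the gene of the other CSF1R ligand, had 11, 13 and 12, or 6.83 per kb, which was below the 23.0 of Csf1r. Per kb Csf1 exceeded Csf1r by a log2 ratio of 3.97, 3.57 and 3.24, a mean of 3.59 ± 0.37 or 12.1-fold. Cx3cl1, the fractalkine gene, had 859, 979 and 902, or 276 per kb, against 3.90 for Cx3cr1. Ccl2, the gene of the main ligand of CCR2, had 107, 163 and 140, or 168 per kb against 8.03 for Ccr2, and the other CCR2 ligand genes Ccl7 and Ccl12 had 23, 26 and 26 and 8, 21 and 11. Csf1 had a CV of 3.05% between mice and Csf1r 23.9%, whereas Ccl2 varied by the rule above, with a CV of 20.6% and its lowest value in mouse 1. These 6 ligand genes summed to 2147, 2385 and 2205. The list of ligands also held Cd47, Cd200 and Apoe, each of them highest in mouse 1, and the sum without them was chosen after the values were seen. Of the full list of 9 genes, 5 were lowest in mouse 1, compared with 33.1% of all genes. All 9 genes summed to 7287, 7158 and 6928, so the full list was not lowest in mouse 1.

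**Figure D5:**
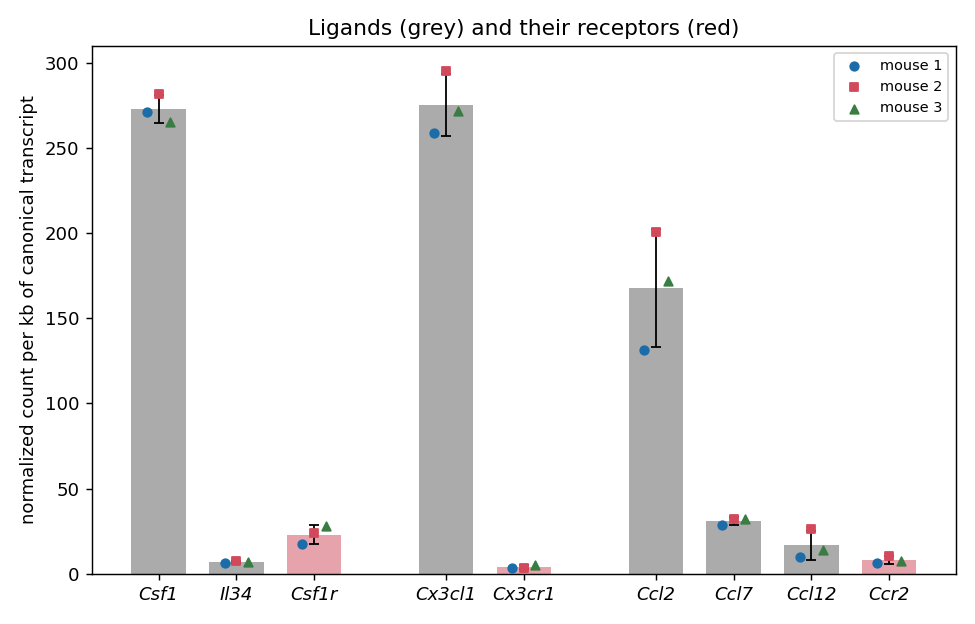
Normalized count per kb of canonical transcript for ligand genes and their receptor genes, with bars for the mean of 3 mice (grey for ligands, red for receptors), lines for 1 SD either way and points for each mouse, on a linear axis from 0. Csf1 lies above Csf1r by 12.1-fold per kb, and Cx3cl1 and Ccl2 lie above Cx3cr1 and Ccr2.

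Further genes of the same pathways were read beside the 36. Over all genes, 33.1% had their lowest value in mouse 1, and 15.5% of those with a mean of at least 10 varied. Of 10 myeloid transcription factor genes, Spi1 included, 9 had their lowest value in mouse 1 and 4 varied, with Irf8, a factor of monocytes and dendritic cells, at 225, 432 and 393 and Maf at 272, 447 and 477. Their summed values in mice 2 and 3 were 1.34 and 1.358 times that of mouse 1. Of 24 further macrophage genes 23 were listed, 14 of those had their lowest value in mouse 1 and 6 of the 18 with a mean of at least 10 varied. Their highest value lay in mouse 3 for 14 and in mouse 2 for 5, unlike the members, most of which were highest in mouse 2. Fcgr2b, the gene of the inhibitory Fc receptor, had 44, 90 and 123, so it moved in the direction of Fcgr1 and Fcgr3. The other Fc receptor genes read did not share this clearly, since Fcgrt went the opposite way, at 1192, 988 and 924, and Fcgr4 had 3, 4 and 4. Among genes of the signalling that starts from DAP12 and the shared Fc chain, and leaving out the members, 10 of 13 were listed and 3 of the 9 that averaged 10 or more varied, with the kinase gene Syk at 233, 439 and 288. Several of these genes are also used by endothelial cells, among them Lyn, at 1253, 1291 and 1169.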

How the data were processed

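RNA bound to HA-tagged ribosomes of 3 EC-RiboTag hearts was purified and read as single 72-base reads. According to the study's methods and the submitters' processing notes, the authors trimmed reads with Trimmomatic 0.39, aligned them with STAR 2.7.11a to mm39, removed duplicates with Picard 3.1.1 and also multi-mapping, ribosomal and mitochondrial reads, counted exonic reads on the correct strand with featureCounts 2.0.4, leaving out reads on several genes, and normalized with DESeq2 1.36.0. The deposited values are a score, normalized counts rounded to whole numbers, so count models were not used. Rounding limits the precision of low genes. Removing duplicates from single-end reads can hold down the values of high genes, and how far it did so was not tested.

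Here the worth of 1 read was estimated from the pattern of missing and doubled whole numbers between 5 and 120. Levels are means ± SD over 3 mice. Levels per kb use canonical transcript lengths of GENCODE vM39 on GRCm39, found for 17475 of 17583 genes (99.4%). Pair ratios use log2 of the value plus 0.5, divided by length, with an exact two-sided sign-flip test over mice. The methods were tested on simulated data. Python 3.11.15, numpy 2.4.6, pandas 2.3.3 and matplotlib 3.10.9 were used. All members are named whatever their values. Members and lists were chosen with earlier results of these data known. Replicates are labelled as biological, and mice were taken as separate. The sequence of a further promoter is not reported here.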

Additional observations from a re-analysis of the deposited data

How the results depend on the processing

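No paired analysis was possible because all 3 mice belong to a single group. The median of the members' mean levels was 35.3 normalized counts, and leaving out each mouse in turn gave 32.3 to 43.0, the highest without mouse 1. The count of 11 varied genes became 7 with a CV over 30%, 7 with a mean of at least 50 and 24 without the condition on counting. It was 12 without a minimum mean and 12 under either rescaling. When each mouse was left out it was 9 to 15, and the genes were not always the same. The counts of genes highest in mouse 2 and mouse 3, 20 and 12, were 8 and 4 among members with a mean of at least 50, where fewer genes are counted. The members' median per kb, 19.6, became 12.2 with exonic length, 34.3 without division by length and 26.8 as a mean over the list, and 17.6 to 22.1 when each mouse was left out. Rescaling moved the level of each of the 34 members by less than 1 SD. No pair ratio changed sign. Chosen after seeing the data were the adjustment for length, the count of genes lowest in mouse 1 under rescaling (23 and 24, against 23), the members' sums without Cd79a (1634, 2351 and 2207) and the sums of other lists without the genes that carried them. With 3 mice the exact sign-flip test could not pass 0.05, and the places of S100a9, Timd4 and Cd79a, with means below 10, rest on few reads.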

Other observations

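Many genes of the other blood cell lists were near or below the floor of the table, but some were as high as macrophage genes such as Spi1 and Cd68. All 5 platelet genes were listed, 2 of them with a mean of at least 10, and they summed to 128, 102 and 108 normalized counts in mice 1, 2 and 3. The platelet gene Pf4 had 50, 51 and 50. Of the 12 T cell genes 4 averaged 10 or more, among them Cd2 at 41, 39 and 28 and Lck at 34, 51 and 33. Of 12 neutrophil genes 4 were listed, with Csf3r, the receptor of granulocyte colony-stimulating factor, at 23, 39 and 34 normalized counts in mice 1, 2 and 3, and Ltf, the lactoferrin gene, at 12, 14 and 13. Lcn2, which encodes lipocalin-2, had 136, 142 and 212, while Mpo, Elane, Camp, Ngp, Retnlg, Mmp8, Cxcr2 and S100a8 were not listed. Of 6 natural killer cell genes 2 were listed, Klrb1c at 4, 12 and 12 and the perforin gene Prf1 at 4, 11 and 12. Of 8 B cell genes 6 were listed, and Ighm, the heavy chain gene of immunoglobulin M, had 70, 72 and 93 normalized counts beside 4 in each mouse for Cd79b.

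Some genes of these lists stood far from the rest of their list. Of 12 T cell genes 7 were listed and Cd3d, Cd3e, Cd3g, Cd8a and Trbc2 were not, but Cd247, the gene of the CD3 zeta chain, had 389, 138 and 188 normalized counts, a mean of 238 ± 133. Its highest value was in mouse 1, opposite to most macrophage genes, and it varied by the same rule. Of 8 dendritic cell genes 6 were listed, with Zbtb46, a transcription factor gene, at 1512, 1340 and 1386 and Flt3 at 2, 4 and 5. Of 6 mast cell genes 4 were listed, with Hdc, the histidine decarboxylase gene, at 277, 264 and 250 and Tpsb2, a tryptase gene, at 1, 3 and 13. Hcls1, among the further macrophage genes, had 761, 870 and 741, and Lyve1, which lymphatic endothelium shares with resident macrophages, 645, 758 and 1023. These genes were singled out after their values were seen, and the cells they came from were not tested.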
